A study of Homo sapiens with 40 samples.

Results

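The genes described here are the 138 numbered LINC genes that HEK293T cells expressed at a measurable level, out of 957 genes with a LINC number and 57992 genes in the count table. They were selected on 2 criteria, a table symbol made of LINC and a number and a mean of at least 0.5 CPM (read counts scaled to the library total) over the 20 input libraries. Of the 957, 496 had at least 1 count in an input. The input level that chose the members is given as a description and not as a finding. The 3 members nearest the threshold were LINC00599 (0.51 CPM), LINC00403 (0.51 CPM) and LINC01529 (0.519 CPM), and the 3 LINC genes just outside it were LINC01565 (0.496 CPM), LINC00163 (0.487 CPM) and LINC01314 (0.452 CPM).

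LINC is the systematic name for long intergenic noncoding RNAs, which are transcribed by RNA polymerase II between protein-coding genes and are mostly spliced and polyadenylated like mRNAs. Many such RNAs stay in the nucleus near chromatin, while others are exported to the cytosol, where some bind RNA-binding proteins and some turn out to be translated into small proteins. The number is a placeholder that is replaced by a descriptive symbol once a function, a neighbouring gene or a reading frame is described.

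The libraries came from MERR APEX-seq of HEK293T cells, a human embryonic kidney line, with the peroxidase APEX2 sent to the endoplasmic reticulum membrane (ERM), the cytosol (NES), the nuclear lamina (LMNB1) or the mitochondrial matrix (MITO). APEX2 attaches biotin to molecules near it, and the biotinylated RNA is then bound to streptavidin (enriched fraction) and compared with the RNA before binding (input). Enriched libraries had 15 PCR cycles and inputs 11, so fraction and amplification cannot be told apart in any enriched-against-input comparison. ERM and NES cells received the thionucleoside s6G, LMNB1 cells were studied in 3 arms (s6G, APEX only, unlabelled) and MITO cells in 4 (s6G, s4U, APEX only, unlabelled). Cells of the s6G and s4U arms grew with the nucleoside at 100 uM for 5 h. Biotin-phenol, the APEX2 substrate, was present at 0.5 mM for 30 min, and the reaction was started by hydrogen peroxide at 1 mM and lasted 1 min. APEX-only cells had no nucleoside, and unlabelled cells had neither nucleoside nor biotin-phenol. The peroxide was given to every group. Each of the 18 groups held 2 libraries, except the enriched and input ERM groups with 4 each, and all were polyA-selected, so transcripts without a polyA tail are outside the measurement. Whether the cells of a construct were 1 clone is not given in the sources used here, and the construct is confounded with whatever else differed between the cells carrying it.

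Totals ran from 123341 counts in the shallowest unlabelled MITO enriched library to 14496768 counts in the deepest ERM library. In that library, the fourth ERM enriched one, and in the third every member's count was even, so their true depth is uncertain. At 1 CPM the shallowest library holds 0.123 counts, so single values of low members there rest on few reads. The construct was visible in LMNB1 itself, at 2340 to 6730 CPM in LMNB1 libraries and at most 340 CPM elsewhere. KRT8, KRT18, NEFL and NEFM, which HEK293T cells are known to express, were present in all 20 inputs, and PAX2 ranged from 0.404 to 12.4 CPM. Of the markers of other cells, PTPRC (leukocytes) had no count in any input, ALB (hepatocytes) reached 0.485 CPM and PECAM1 (endothelium) 0.561 CPM, while COL1A1 (fibroblasts) had 18 to 85.7 CPM. For 8 libraries titled s6G, 4 of ERM and 4 of LMNB1, the characteristics say s4U, and they were grouped by title, which is also what the design text gives. ATF3, a stress-response gene, had 166 to 334 CPM in the 10 inputs titled s6G and 37 and 54.2 CPM in the MITO s4U inputs. In these bulk samples fewer cells with an RNA and less of it per cell cannot be told apart.

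**Figure D1:**
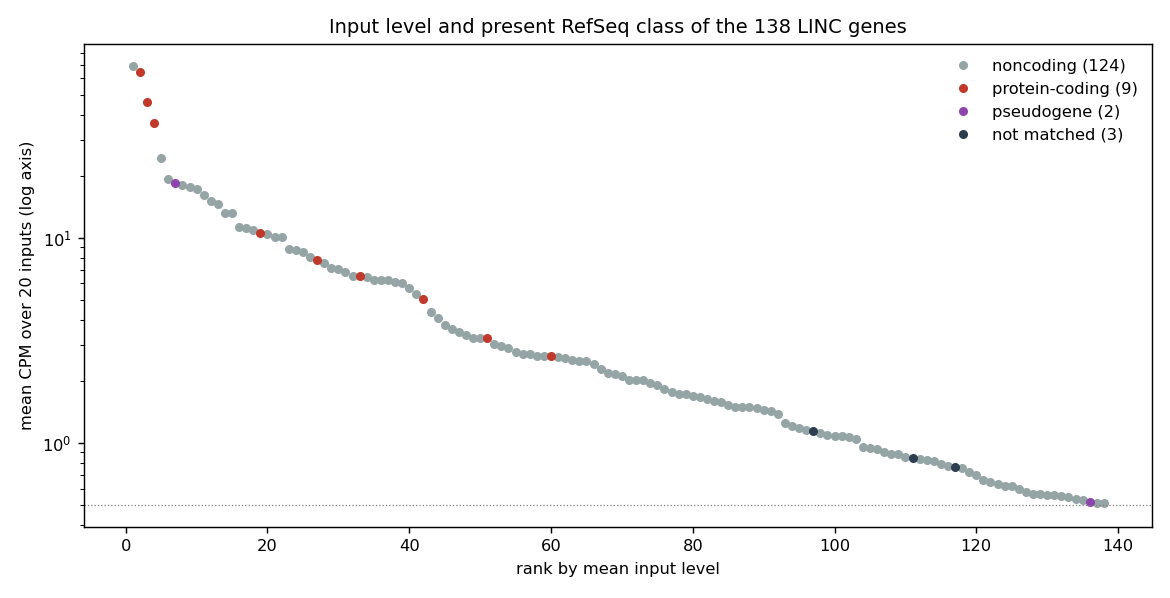
Mean CPM over 20 inputs (log axis) of the 138 LINC genes, ranked from the highest to the lowest and coloured by present RefSeq class; the dotted line is the threshold of 0.5 CPM. The 9 genes now annotated as protein-coding include 3 of the 4 highest.

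Most members were low and a few carried much of the signal. The median input level was 2.15 CPM, 22 members reached 10 CPM and 103 reached 1 CPM, and the 10 highest together held 43% of the summed member CPM. RefSeq matched 135 members, of which 124 are still annotated as noncoding, 9 as protein-coding and 2 as pseudogenes, and 31 have been renamed. The name intergenic does not hold for all of them on GRCh38.p14: 27 overlap a protein-coding gene, and 15 start within 1000 bp of the opposite start of another gene. Where the counting could not use strand, reads of such overlapping pairs cannot be told apart. The threshold was met over the inputs without thionucleoside by 126 members, and 12 reached it only with the inputs that had s6G or s4U. Every input group reached it for 89 members.

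In the authors' TPM, the order of the leading members was different from that of their CPM. The authors' deposited table gave a mean of 210.4 TPM in unlabelled MITO inputs for LINC00998 (now SMIM30, encoding a small membrane protein), against 48.95 TPM for LINC01003, 48.85 TPM for LINC00641 and 30.88 TPM for LINC00094 (now BRD3OS). LINC01420 (now NBDY, which encodes a small protein of the mRNA decapping machinery) had 3.122 TPM and LINC01578 (now CHASERR, an RNA transcribed beside CHD2 that is known to restrain it) had 10.17 TPM. With introns, the gene of LINC01420 spans 89937 bp and that of LINC00998 1837 bp. Whether these TPM follow gene span or the length of the RNA was not tested, so they cannot be read as levels per length of RNA. By CPM over the 20 inputs the leading members were LINC00641 (69.01), LINC00998 (64.74), LINC01420 (46.25), LINC00094 (36.51), LINC01578 (24.42), LINC01278 (19.42), LINC01296 (18.51), LINC01003 (18.13), LINC01021 (17.69; now PURPL, a p53-induced RNA) and LINC01128 (17.26).

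Some members differed between inputs with and without s6G before any enrichment, and the promoters of these are shown first. ERM and NES cells had no inputs without thionucleoside, so for their inputs construct and nucleoside cannot be told apart. In 6 of the 138 members all 10 s6G inputs lay above all 8 inputs without thionucleoside, and in 0 members all lay below. Of the 16862 genes of at least 0.5 CPM, 2.85% lay above and 7.9% below. The members' share above was thus near the background. The threshold, taken over inputs of which some had a thionucleoside, favoured such members and such genes. These 6 were LINC00641, LINC00476 (now ERCC6L2-AS1, antisense to ERCC6L2), LINC00634 (now SMIM45), LINC00926, LINC01588 and LINC01348. RefSeq promoters, 250 bases before to 50 after a start site, matched 101 of the 138 members and 5 of the 6, and those of the 4 noncoding ones are printed because their s6G inputs stood apart from the inputs without thionucleoside. Each is from GRCh38.p14, minus strand, 5′ to 3′, at chr14:21206851-21207150 (LINC00641), chr9:95875928-95876227 (LINC00476), chr14:50007471-50007770 (LINC01588) and chr1:235069769-235070068 (LINC01348), with capitals marking a CCAAT box (CCAAT) read on either strand.
LINC00641: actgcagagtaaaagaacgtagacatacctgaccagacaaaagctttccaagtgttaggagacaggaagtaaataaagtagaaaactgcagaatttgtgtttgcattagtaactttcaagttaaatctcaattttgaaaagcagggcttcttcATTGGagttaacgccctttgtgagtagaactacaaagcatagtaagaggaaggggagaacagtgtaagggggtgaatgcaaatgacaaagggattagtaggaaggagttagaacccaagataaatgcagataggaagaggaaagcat
LINC00476: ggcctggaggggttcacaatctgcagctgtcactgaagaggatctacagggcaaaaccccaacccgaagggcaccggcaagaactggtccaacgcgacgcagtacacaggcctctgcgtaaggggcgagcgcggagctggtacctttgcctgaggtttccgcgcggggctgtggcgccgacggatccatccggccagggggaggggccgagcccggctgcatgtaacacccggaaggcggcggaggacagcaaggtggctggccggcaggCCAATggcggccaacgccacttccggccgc
LINC01588: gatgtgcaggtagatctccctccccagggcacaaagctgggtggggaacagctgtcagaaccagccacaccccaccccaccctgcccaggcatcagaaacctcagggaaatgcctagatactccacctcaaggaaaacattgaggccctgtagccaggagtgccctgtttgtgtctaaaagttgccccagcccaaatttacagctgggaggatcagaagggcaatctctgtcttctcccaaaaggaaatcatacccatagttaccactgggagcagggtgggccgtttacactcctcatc
LINC01348: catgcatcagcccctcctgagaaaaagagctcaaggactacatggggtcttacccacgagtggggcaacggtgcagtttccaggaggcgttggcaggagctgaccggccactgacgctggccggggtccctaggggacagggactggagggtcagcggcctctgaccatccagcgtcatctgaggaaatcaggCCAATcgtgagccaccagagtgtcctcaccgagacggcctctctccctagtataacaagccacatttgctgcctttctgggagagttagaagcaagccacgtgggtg
The letters CCAAT stood in 3 of these 4 windows, in 42.6% of the 101 member promoters and in 34.6% of all 35116 promoters of the table. The windows differed in composition, from 39% GC with 2 CpG in LINC00641 to 67.3% GC with 26 CpG in LINC00476. None of the 4 held a TATA box (TATAAA), a GC box (GGGCGG), a cyclic AMP response element (TGACGTCA), an AP-1 site (TGANTCA) or a C/EBP-ATF response element (TGATGNAA) on either strand, letters that 11.5%, 45%, 1.85%, 7.71% and 3.62% of all promoters hold. The ETS letters CCGGAAG stood in the LINC00476 window, in 16.8% of member promoters and in 10.3% of all promoters.

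LINC00641, a spliced RNA at chr14:21200079-21206900, had 78.8 to 137 CPM in the 10 s6G inputs (median 93.9), 28.2 and 33 CPM in the s4U inputs and 32 to 63.2 CPM in the 8 inputs without thionucleoside (median 40.2). The s6G inputs were the high ones in MITO and LMNB1, the constructs that also had inputs without thionucleoside. One s4U input lay below every input without thionucleoside and the other among the lowest of them. With counts pooled, the ratio to inputs without thionucleoside was 2.35 (95% exact interval 2.12 to 2.61, counting error only) in MITO s6G inputs, 2.14 (1.95 to 2.35) in LMNB1 s6G inputs and 0.722 (0.623 to 0.834) in MITO s4U inputs. Across libraries the log2 fold change was 1.37 ± 0.36 in MITO (SE, n = 2 against 4, edgeR adjusted p = 0.106) and 1.20 ± 0.27 in LMNB1 (adjusted p = 0.068). Neither passed 0.05. With the replicate number as a block LMNB1 passed (adjusted p = 0.0153) and MITO did not (0.0844), and in a joint fit of the inputs of both constructs, chosen after seeing the data, the value was 1.27 ± 0.19 (adjusted p = 0.000385).

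LINC01348 (chr1:235065474-235069818) was almost absent without a thionucleoside. It had 31 and 49 counts in the MITO s4U inputs, 4 to 15 counts in each of the 10 s6G inputs and 2 counts in all over the 8 inputs without thionucleoside. In CPM these were 7.86 and 11.7 with s4U, 0.699 to 2.25 with s6G and 0 to 0.256 without. Against 1 count in the 4 MITO inputs without thionucleoside, the pooled ratio was 179 with s4U (95% exact interval 31.2 to 7160) and 38.6 with s6G (5.93 to 1620), and against 1 count in the LMNB1 inputs it was 27.7 with s6G (4.1 to 1180). The s4U difference was the 1 member called in that comparison (log2 fold change 6.97 ± 0.95, edgeR adjusted p = 0.0235), where 0.0198% of 15151 genes were called higher and 0% lower. It was no longer called without any 1 of the 6 libraries compared. LINC01348 reached the 0.5 CPM threshold only through these inputs (0.0633 CPM without thionucleoside), so the choice of members favoured such a difference.

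**Figure D2:**
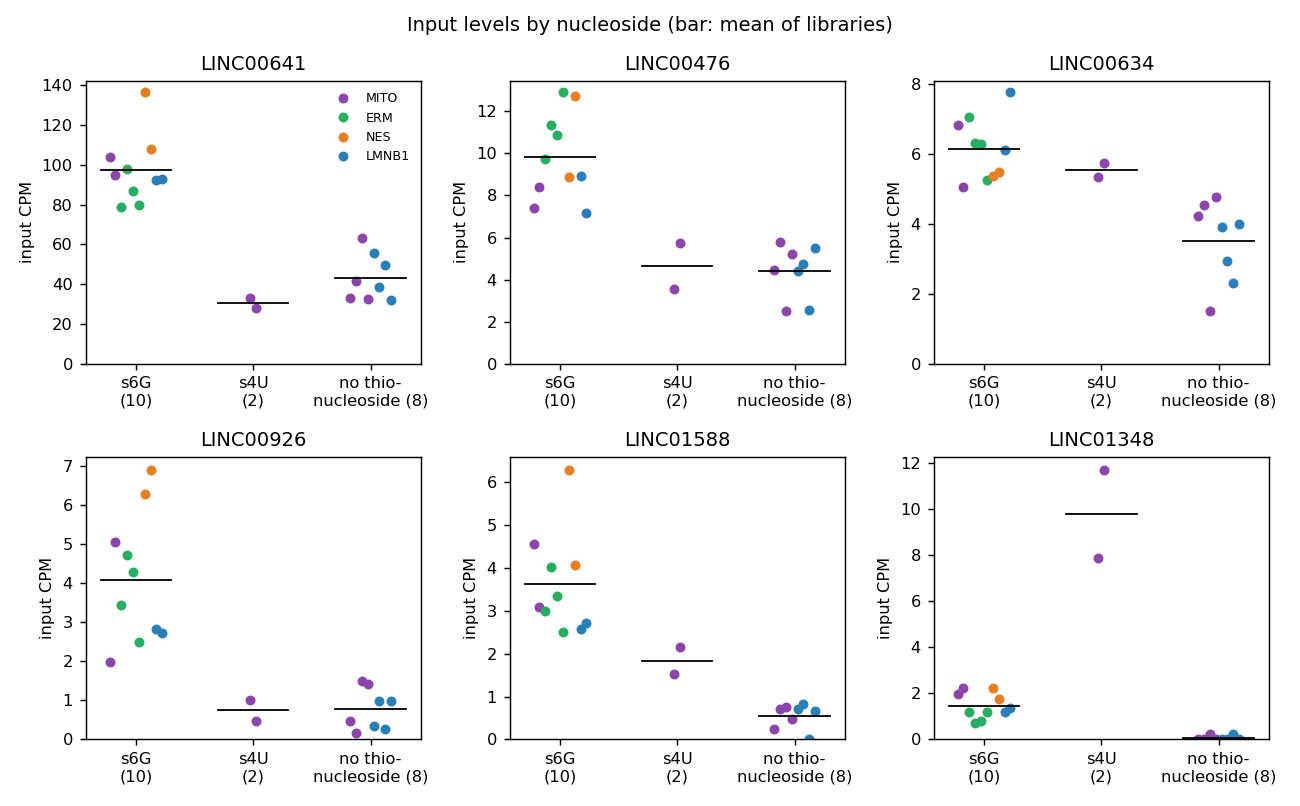
Input CPM of the 6 members whose s6G inputs all lay above the inputs without thionucleoside, by nucleoside (10 s6G, 2 s4U and 8 libraries with none), 1 point a library coloured by construct, bars at the means. LINC00641 is at 28.2 and 33 CPM with s4U, below all s6G inputs, and LINC01348 is highest with s4U at 7.86 and 11.7 CPM.

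LINC00926 had 1.99 to 6.91 CPM in the 10 s6G inputs, 0.477 and 1.01 CPM with s4U and 0.175 to 1.5 CPM in the 8 inputs without thionucleoside. LINC01588 had 2.5 to 6.28 CPM with s6G, 1.52 and 2.15 CPM with s4U and 0 to 0.815 CPM without. Both were separate by nucleoside at a low level, and neither was called in a construct alone (LINC01588 log2 fold change 2.86 ± 0.84 in MITO, adjusted p = 0.155, and 2.38 ± 0.70 in LMNB1, adjusted p = 0.148). LINC00476 had 7.18 to 12.9 CPM with s6G, 3.55 and 5.73 CPM with s4U and 2.51 to 5.76 CPM without.

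Over all members the s6G inputs were not shifted. The median log2 fold change against inputs without thionucleoside was 0.07 over 98 tested members and 0.01 over all genes in MITO, and 0.11 over 118 tested members and 0.01 over all genes in LMNB1. edgeR called 0 members in either construct, against 0.686% of genes in MITO and 0.321% in LMNB1. At an unadjusted p of 0.05 there were 9 members in MITO and 14 in LMNB1, against 1879 of 15151 and 2319 of 16525 genes. DESeq2 called 2 and 3 members, against 404 and 544 genes. With the replicate block 4 members were called in LMNB1, all higher, when 3.46% of genes were. They were LINC00467 (1.45, adjusted p = 0.0161), LINC00641, LINC01003 (1.19, adjusted p = 0.0309) and LINC01578 (1.08, adjusted p = 0.0283). The joint fit called 14 members higher (15.9% of the 88 tested) and 3 lower (3.41%), where 12.9% of all genes were higher and 15.3% lower. LINC01578 shows how far the constructs differed: in LMNB1 it had 37.6 and 27 CPM with s6G and 11.9 to 23 CPM without, in MITO 26.5 and 26.9 CPM with s6G and 17.8 to 31.1 CPM without.

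At the endoplasmic reticulum membrane, 21 of 115 tested members were higher in the enriched fraction than in the input (18.3%) and 17 were lower (14.8%), against 34.3% and 28.9% of all 15619 genes. In the cytosol 19 were higher (16.5%) and 15 lower (13%), against 28.7% and 26.4%. The members' shares were thus below the background in each direction and construct. The members tested were also lower in level than most genes, and within 10 CPM or more 54.5% of 22 members were called in ERM against 77.3% of all genes of that level (50% against 69.4% in NES), while between 1 and 10 CPM it was 30.7% of 75 members against 42% (30.7% against 34.9% in NES). The median log2 fold change was -0.07 over members and 0.11 over all genes in ERM, and 0.10 and 0.01 in NES. The split in ERM depended on scaling: with total counts in place of TMM 32 members were higher and 9 lower, while the median of all genes moved to 0.42. All 23 members left out of these tests had failed the filter on low counts. The ERM p-values treat the 4 libraries of a group as alike replicates, although libraries 1 and 2 stood apart from 3 and 4.

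**Figure D3:**
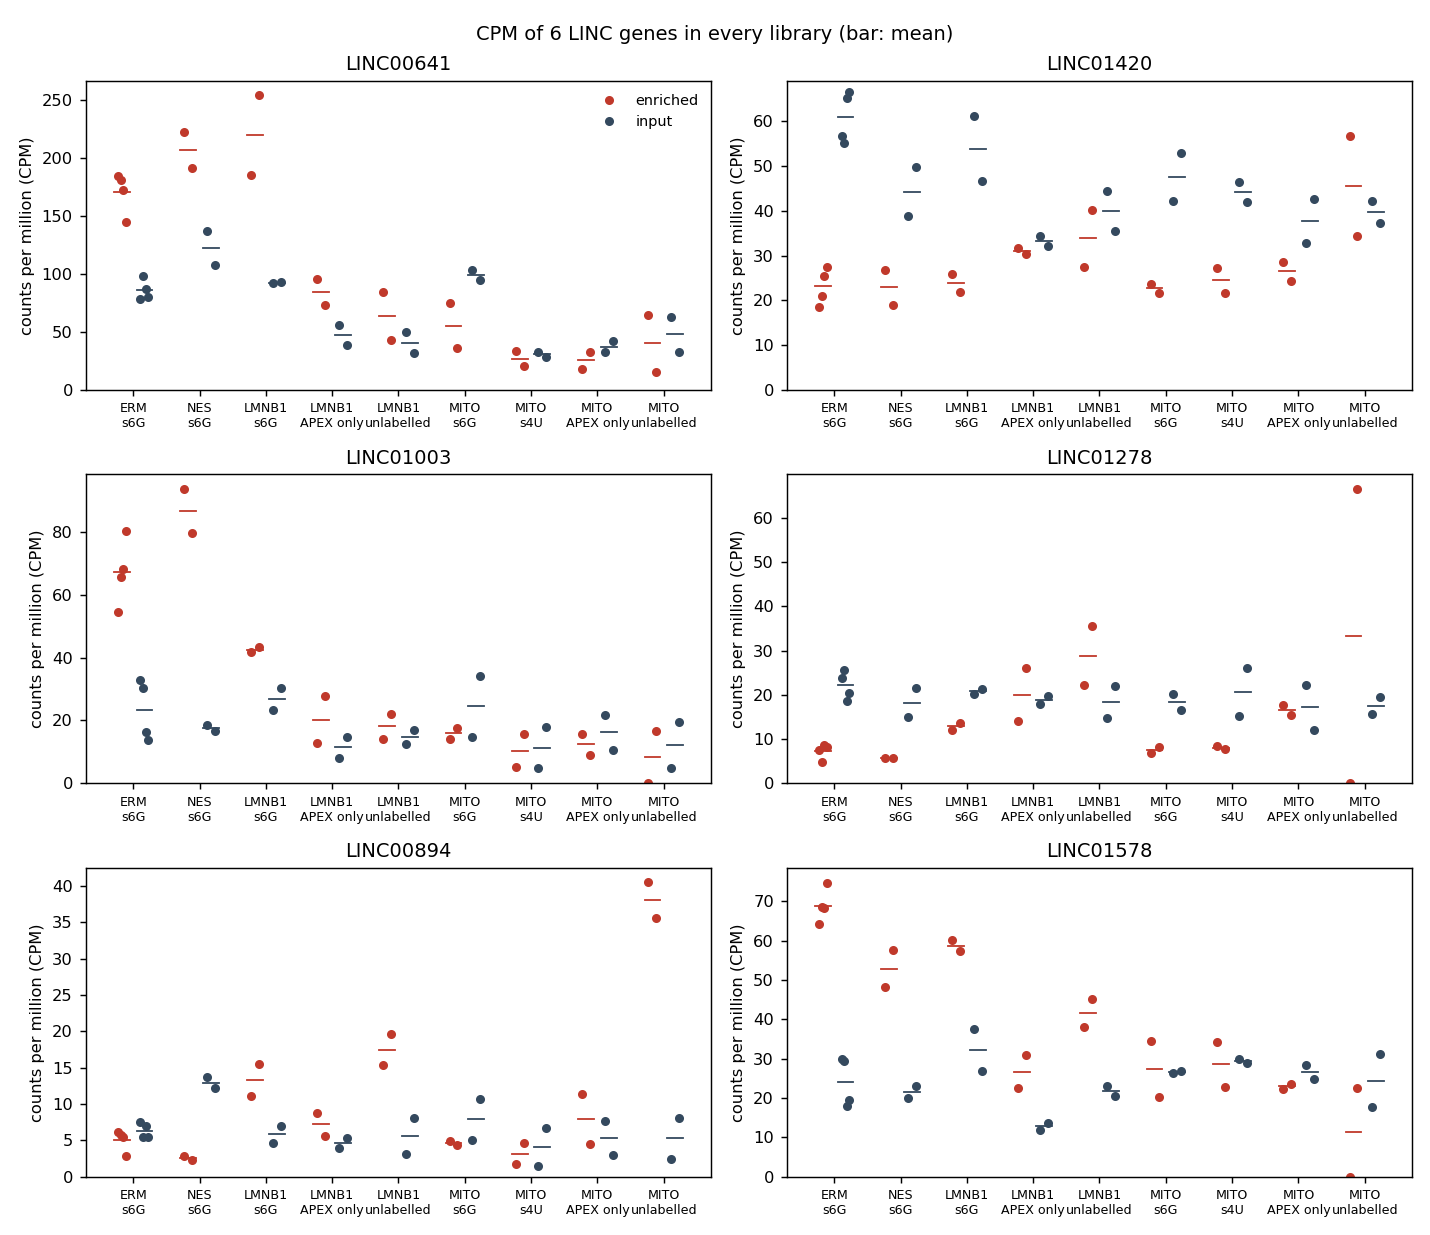
CPM of 6 members in every library of the 9 construct and arm combinations, enriched left of input, 1 point a library with bars at the means. LINC01420 lies at 18.5 to 27.4 CPM in the 4 ERM enriched libraries and at 55.2 to 66.6 CPM in the 4 inputs, and LINC01003 at 54.5 to 80.2 CPM against 13.8 to 32.7 CPM.

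LINC01003, a short noncoding RNA on chromosome 7, had 54.5, 65.7, 68.1 and 80.2 CPM in ERM enriched libraries, against 32.7, 30.4, 16.4 and 13.8 CPM in their inputs. In NES cells it had 93.6 and 79.5 CPM in enriched libraries, against 18.5 and 16.6 CPM in inputs. The groups did not overlap in either construct. Its log2 fold change was 1.28 ± 0.21 in ERM (SE, n = 4, edgeR adjusted p = 3.15e-05) and 2.24 ± 0.31 in NES (n = 2, adjusted p = 9.86e-06). LINC01578, the CHD2 neighbour, had 64.2, 68.6, 68.3 and 74.8 CPM in ERM enriched libraries and 30, 29.4, 17.9 and 19.5 CPM in inputs. Its log2 fold change was 1.24 ± 0.14 in ERM (adjusted p = 3.74e-07) and 1.22 ± 0.21 in NES (adjusted p = 6.81e-05).

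LINC00641 was higher in the enriched fraction of both, with 184, 182, 173 and 145 CPM in ERM enriched libraries against 78.8, 97.9, 86.8 and 79.95 CPM in inputs. In NES it had 223 and 191 CPM in enriched libraries and 137 and 108 CPM in inputs. The log2 fold changes were 0.68 ± 0.12 (ERM, adjusted p = 4.75e-05) and 0.69 ± 0.16 (NES, adjusted p = 0.00161). LINC00863 rose by 0.94 in ERM and 1.56 in NES, LINC00511 by 0.92 and 1.49, LINC01128 by 0.81 and 0.95 and LINC00094 by 0.40 and 0.79, each with an edgeR adjusted p under 0.05. LINC01376 (1.21) and LINC01619 (0.92) were called in ERM, and LINC00909 (1.44) and LINC00847 (2.28) were among those called in NES. LINC01376 passed the filter on low counts only through the ERM enriched libraries, so the choice of tested genes favoured its rise. LINC00847, which overlaps the coding gene ZFP62, had 6 and 17 counts in the NES enriched libraries and 2 and 1 counts in the inputs, and lost its call without the second enriched library (1.37) or either input (2.88 and 1.89). LINC00511 lost its ERM call without the fourth input (0.71) and its NES call without the second enriched (1.04) or first input library (1.08). With DESeq2 LINC00847 had an adjusted p of 0.0524.

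Among the members that fell, LINC01420 (NBDY) had 18.5, 21, 25.5 and 27.4 CPM in ERM enriched libraries against 56.7, 55.2, 65.2 and 66.6 CPM in inputs. In NES it had 26.9 and 18.9 CPM in enriched libraries against 38.8 and 49.8 CPM in inputs. No enriched library reached an input in either construct. The log2 fold change was -1.69 ± 0.17 in ERM (edgeR adjusted p = 8.23e-08) and -1.01 ± 0.24 in NES (adjusted p = 0.00181). LINC01278, a long X-chromosomal transcript, had 7.49, 4.9, 8.64 and 8.28 CPM in ERM enriched libraries and 23.9, 25.7, 18.6 and 20.5 CPM in inputs. It fell by 1.86 on the log2 scale in ERM and by 1.73 in NES (adjusted p = 7.31e-08 and 3.9e-05). LINC00342 fell by 1.71 in ERM and 1.96 in NES, and LINC00173 by 1.88 and 2.91. The NES call of LINC00173 was lost without the first enriched library (-2.65) or the second input (-1.81). LINC00648 (-1.85) and LINC01535 (-1.86) were called in ERM at input levels of 1.35 to 3 CPM. In NES cells LINC00894 (-2.36) and LINC00893 (-2.20) fell. They are now named EOLA2-DT and EOLA1-DT and start beside the paralogous genes EOLA2 and EOLA1 on the X chromosome. LINC01033 was called too, but not without the first enriched (-1.49) or the second input library (-1.57).

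The 14 members called higher in both constructs were 66.7% of the ERM list and 73.7% of the NES list, and the 9 called lower in both were 52.9% and 60%. Over all genes the shares were larger, 76.1% of the ERM and 90.9% of the NES list for the genes called higher and 76.8% and 83.9% for those called lower. ERM and NES did not share libraries but were estimated in the same fit. The difference between their enrichments was tested directly and called 0 members, against 0.0064% of genes. DESeq2 called 0 as well, and 14 members had an unadjusted p under 0.05. LINC00894 came nearest, with a difference of 1.69 ± 0.43 on the log2 scale (edgeR adjusted p = 0.13). Its enriched and input values were 6.18, 5.69, 5.47 and 2.9 CPM against 7.5, 5.42, 6.98 and 5.41 CPM in ERM, and 2.92 and 2.32 CPM against 13.7 and 12.2 CPM in NES. With the replicate block it was the 1 member called (1.67, adjusted p = 0.0219), when 6.08% of genes were called.

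As a share of all counts, members took more of the enriched than of the input libraries in ERM cells, 0.108% ± 0.00133 against 0.0782% ± 0.00647 (SD, n = 4). The groups did not overlap. With total-count scaling, which this share also uses, the median log2 fold change was 0.24 over members and 0.42 over all genes, so a typical gene was shifted as well. Genes of mitochondrial DNA took 1.45 to 2% of the ERM enriched libraries and 6.78 to 7.87% of the inputs. Without them the shares were 0.11% and 0.0845%. In NES the members' shares were 0.11% ± 0.000853 in enriched and 0.0813% ± 0.00252 in input libraries (SD, n = 2), and the total-count medians 0.17 over members and 0.08 over all genes.

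At the nuclear lamina the members stood higher in the enriched fraction whatever the label. The median log2 fold change over 118 tested members was 0.60 with s6G, 0.55 with APEX only and 0.67 without labelling, against 0.13, 0.06 and -0.01 over all 16525 genes. The log2 fold change was positive in 81, 94 and 81 of the 118 members, and in 9190, 8814 and 8140 of the 16525 genes. Members' shares of counts were 0.121% ± 0.0148 in enriched and 0.0796% ± 0.00479 in input libraries with s6G, 0.1% ± 0.00789 and 0.0681% ± 0.00259 with APEX only, and 0.107% ± 0.0111 and 0.0711% ± 0.00321 without labelling (SD, n = 2 each). The groups did not overlap in any of the 3 arms. With total-count scaling the median log2 fold changes were 0.81, 0.69 and 0.63 over members and 0.34, 0.20 and -0.04 over all genes. Antisense transcripts of the same level also had positive medians there, 0.74, 0.51 and 0.43 over 331 tested. The part of unspecific binding to the beads in these values was not tested.

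**Figure D4:**
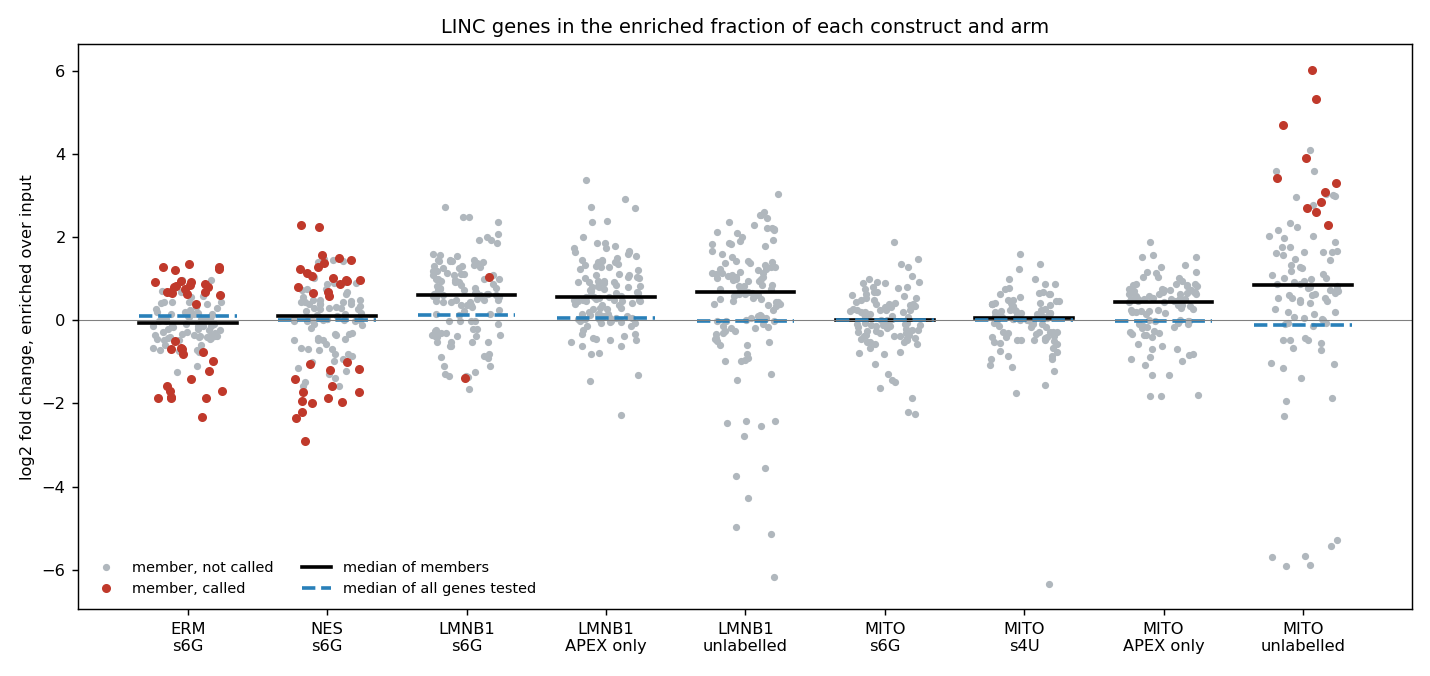
log2 fold change of enriched over input for every tested member in the 9 construct and arm combinations, with called members in red, the members' median as a solid and the median of all tested genes as a dashed line. The members' median exceeds that of all genes in the 3 LMNB1 arms (0.60, 0.55 and 0.67 against 0.13, 0.06 and -0.01) and in the APEX-only and unlabelled MITO arms (0.44 and 0.85 against -0.01 and -0.12).

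Few of these shifts were called gene by gene. With s6G, edgeR called 1 member higher and 1 lower, where 5.35% of genes were higher and 7.62% lower. LINC00641 had 185 and 255 CPM in LMNB1 s6G enriched libraries against 92.4 and 92.7 CPM in inputs, and its log2 fold change was 1.04 ± 0.31 (adjusted p = 0.0467). LINC01420 had 25.9 and 22 CPM in enriched libraries against 61.1 and 46.8 CPM in inputs, and its log2 fold change was -1.38 ± 0.29 (adjusted p = 0.00843). LINC00641 lost its call without any 1 of these 4 libraries (adjusted p 0.0945 to 0.296), and LINC01420 without the second enriched or the first input library (0.103 and 0.0751). With the replicate block 6 members were called, 5 higher and 1 lower, when 18.9% of genes were, and LINC01012, LINC01311, LINC00339 and LINC01521 joined the higher ones.

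In the LMNB1 APEX-only arm edgeR called 0 of 118 members against 1.43% of genes. At an unadjusted p under 0.05 there were 13 members against 2605 of 16525 genes, and DESeq2 called 4 against 1043. Without labelling edgeR called 0 of 118 members against 0.0363% of genes. There, 23 members had an unadjusted p under 0.05 against 2866 of 16525 genes, and DESeq2 called 4 against 446. Leaving out the first or second unlabelled enriched library gave 9 or 3 called members, where the library left is assumed to vary like those of the other groups. The difference between the s6G and the unlabelled enrichment was tested directly and had a median of -0.19 over members and 0.03 over all genes. edgeR called 0 members against 2.7% of genes, DESeq2 called 3, all lower, and 13 had an unadjusted p under 0.05. Without the first unlabelled enriched library 10 members were called and without the second 2. LINC00641 differed by 0.40 ± 0.45 (adjusted p = 0.674) and LINC01420 by -1.20 ± 0.41 (adjusted p = 0.122).

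Nuclear lamina and cytosol could be compared directly with s6G, since LMNB1 and NES cells had the same label. The enrichment of 16 of 114 tested members was higher in LMNB1 (14%) and of 8 was lower (7.02%), against 15.4% and 19.2% of 16139 genes. The share higher was near the background and the share lower was below it. The median difference was 0.29 over members and -0.03 over all genes. Total-count scaling gave 19 higher and 3 lower, and the replicate block 22 higher and 14 lower, against 22% and 26.5% of genes with the block. Construct and preparation cannot be told apart in this comparison.

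**Figure D5:**
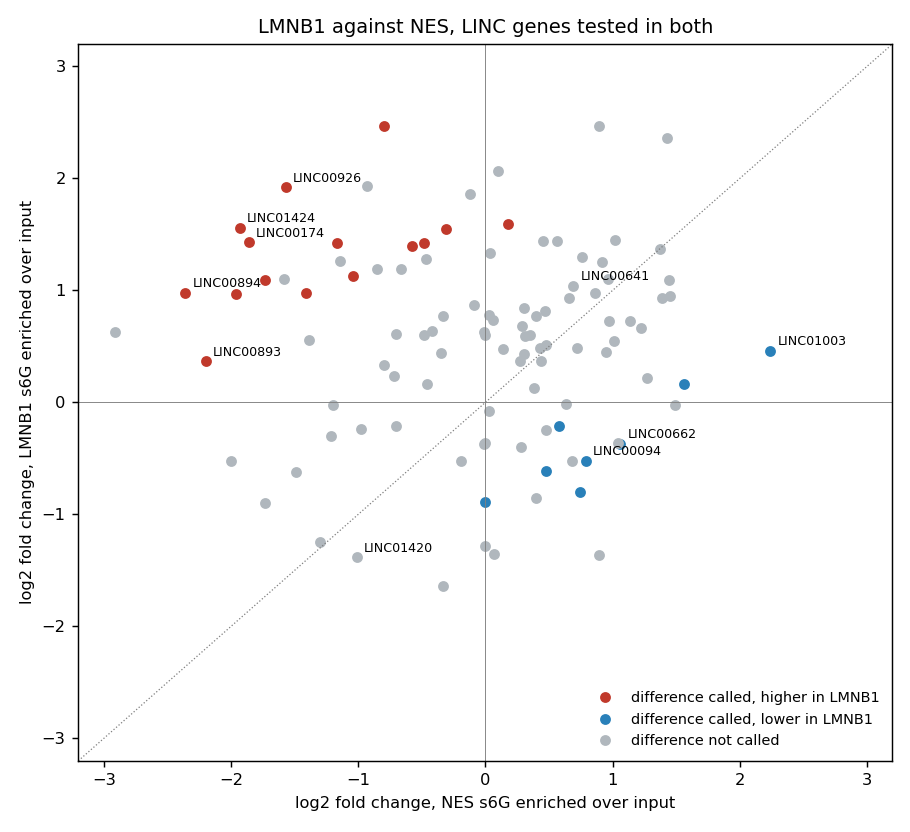
log2 fold change of enriched over input with s6G in LMNB1 (vertical) against NES (horizontal) for members tested in both fits, coloured by the test of the difference; the dotted line marks equal values. LINC00894 (-2.36 in NES) and LINC01003 (2.24 in NES) stand on opposite sides of the line.

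LINC00894 had 11.2 and 15.5 CPM in LMNB1 s6G enriched libraries against 4.7 and 6.99 CPM in inputs, and in NES 2.92 and 2.32 CPM in enriched libraries against 13.7 and 12.2 CPM in inputs. The difference was 3.21 ± 0.54 on the log2 scale (edgeR adjusted p = 9.97e-05). In the unlabelled LMNB1 arm it had 15.4 and 19.6 CPM in enriched libraries against 3.07 and 8.14 CPM in inputs, a log2 fold change of 1.67 ± 0.54 (adjusted p = 0.166) beside 0.98 ± 0.52 with s6G (adjusted p = 0.248), neither of them called. LINC00174 had 25.6 and 13.8 CPM in LMNB1 s6G enriched libraries against 6.58 and 6.21 CPM in inputs, and in NES 2.67 and 2.19 CPM against 8.68 and 8.32 CPM. The difference was 3.18 ± 0.62 (adjusted p = 0.000393). LINC00926 (3.38), LINC01424 (3.36), LINC00342 (2.80), LINC00106 (2.69) and LINC00893 (2.45) were also higher in LMNB1. In the unlabelled LMNB1 arm, the enriched libraries lay above the inputs in CPM for LINC00342 and LINC00926 as well. They lay below the inputs for LINC00106 and overlapped with them for LINC01424 and LINC00893. LINC01341 had the largest fitted value (4.55 ± 1.51, adjusted p = 0.0225), but it had 0 and 8 counts in the NES inputs and the value was -0.95 without the second of these. LINC01341 passed the filter on low counts in this fit only through the LMNB1 enriched libraries, so the choice of tested genes favoured this difference. It was also no longer called without the first LMNB1 enriched, the second LMNB1 input or the first NES enriched library (4.17, 3.74 and 4.14), and LINC01424 was not without the second NES enriched or first NES input library (2.84 and 2.86).

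The members on the other side were higher in the NES enrichment. LINC01003 had 41.6 and 43.3 CPM in LMNB1 s6G enriched libraries against 23.3 and 30.3 CPM in inputs, and 93.6 and 79.5 CPM against 18.5 and 16.6 CPM in NES. The difference was -1.90 ± 0.48 (edgeR adjusted p = 0.00428). LINC00094 (BRD3OS) had 20.9 and 31.7 CPM against 26.3 and 38.6 CPM in LMNB1, and 52.9 and 55.5 CPM against 32.1 and 27.4 CPM in NES, a difference of -1.44 ± 0.33 (adjusted p = 0.00191). LINC00863 (-1.51), LINC00662 (-1.55), LINC01605 (-1.66) and LINC00998 (adjusted p = 0.013) went the same way. With total-count scaling LINC00662 (adjusted p = 0.0741), LINC01605 (0.0598) and LINC00998 (0.0978) were not called. LINC00662 also lost its call without the first LMNB1 input, NES enriched or NES input library (-1.36, -1.50 and -1.58), and LINC01605 without the first LMNB1 enriched, second LMNB1 input or second NES enriched library (-1.37, -1.62 and -1.38). LINC01420 differed by -0.48 ± 0.36 (adjusted p = 0.33), and LINC00641 by 0.22 ± 0.27 (adjusted p = 0.56).

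In the mitochondrial matrix, where nuclear genes are not transcribed, labelled arms moved hardly any member once scaled. edgeR called 0 of 98 tested members with s6G (0.317% of genes), 0 with s4U (0.112%) and 0 with APEX only (0.271%). DESeq2 called 0 members in each, against 414, 249 and 339 of 15151 genes. An unadjusted p under 0.05 was found for 2, 1 and 6 members, against 1342, 1049 and 1342 genes. The median log2 fold changes were 0.00, 0.06 and 0.44 over members, and 0.01, 0.01 and -0.01 over all genes. As shares of all counts members were below the inputs, at 0.0474% ± 0.00899 against 0.083% ± 0.00958 with s6G (SD, n = 2), while genes of mitochondrial DNA took 36.1 to 58.2% of the s6G enriched and 5.54 to 5.9% of the s6G input counts. Without those genes the shares were 0.0912% and 0.0881%, and the groups overlapped. LINC00641 had 74.6 and 36.2 CPM in MITO s6G enriched libraries against 104 and 95.1 CPM in inputs, and a scaled log2 fold change that rounded to 0.00 (SE 0.44).

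With the replicate block, 1 member was called with s6G (6.82% of genes), 1 with s4U (4.96%) and 4 with APEX only (7.15%). They were LINC01578 with s6G (0.91, adjusted p = 0.0301), LINC00106 with s4U (0 and 0 CPM in enriched libraries, 1.27 and 5.01 CPM in inputs), and with APEX only LINC00998 (0.74, higher) and LINC00094 (-0.82), LINC00963 (-1.29) and LINC01547 (-1.32). LINC00116 (now MTLN) and LINC00493 (now SMIM26), which encode small proteins of mitochondria, were called in no MITO arm.

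The unlabelled MITO arm was the one with member calls there, 11 higher and 0 lower of 98, or 11.2%, against 5.78% higher and 4.09% lower of 15151 genes. By level, 60% of 5 members from 0.5 to 1 CPM were called, against 30.5% of genes in either direction. Between 1 and 10 CPM it was 11.3% of 71 members against 6.84%, and at 10 CPM or more 0 of 22 against 6.69%. Under 0.5 CPM, where no member lies, 79.8% of genes were called. The median was 0.85 over members and -0.12 over all genes, and members' share of counts was 0.15% ± 0.0139 in enriched against 0.0751% ± 0.0114 in input libraries (SD, n = 2). The enriched libraries held 123341 and 842177 counts. LINC00598, the highest, had 4 and 23 counts in them against 1 and 2 counts in the inputs (32.4 and 27.3 CPM against 0.251 and 0.475 CPM, log2 fold change 6.02 ± 0.99, edgeR adjusted p = 0.00826). LINC01140 (5.31), LINC01588 (4.70), LINC00240 (3.91) and LINC00858 (3.41) followed, and LINC00894 had 40.5 and 35.6 CPM against 2.51 and 8.07 CPM (2.69 ± 0.78, adjusted p = 0.0394). In the MITO fit, LINC00598, LINC01140 and LINC00240 passed the filter on low counts only through the unlabelled enriched libraries. The choice of tested genes thus favoured a rise of these members in this arm. With the replicate block 20 members were called, all higher (20.4%), when 9.89% of genes were called higher and 10.6% lower. Without either unlabelled input library the count was 0, and without the first or second enriched library it was 10 or 9. LINC00240 and LINC01588 were not called without the first enriched library (3.31 and 2.32).

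The 9 members now annotated as protein-coding went in both directions. In ERM 2 were higher and 3 lower of 9, in NES 2 and 2, and in LMNB1 against NES 2 and 2, where LINC00176 and LINC01125 were higher in LMNB1 and LINC00094 and LINC00998 lower. LINC00998 (SMIM30) had 50.9, 73.9, 59.6 and 57.9 CPM in ERM enriched libraries and 56, 79, 69.9 and 72.9 CPM in inputs. Those CPM overlapped, and the scaled log2 fold change was -0.51 ± 0.14 (edgeR adjusted p = 0.00344). In NES it was 0.00 ± 0.20 (adjusted p = 0.989). With total-count scaling the ERM value was -0.20 (adjusted p = 0.193). LINC00116 was called in neither construct (0.31 ± 0.34 in ERM and 0.48 ± 0.53 in NES). LINC00493 (0.63 ± 0.29 in NES, adjusted p = 0.0702) and the pseudogene LINC01296 (now DUXAP10, 0.48 ± 0.23, adjusted p = 0.0831) were called in NES only with the replicate block (adjusted p = 0.0331 and 0.0409). LINC01021 (PURPL) was called in neither, at -0.12 ± 0.15 in ERM (adjusted p = 0.479) and -0.35 ± 0.21 in NES (adjusted p = 0.166).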

How the data were processed

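The members, gene lists and tests were chosen with earlier results of these data known. Gene counts for 40 libraries were deposited by the authors as whole numbers of reads per Ensembl gene. Alignment and counting tools listed in the submitters' processing notes include HTSeq 0.7.2 and HISAT2 2.1.0, with DESeq2, SAMtools and deepTools 2.5.3 beside them, on GRCh38/hg38. Annotation and strand setting: not given in the sources used here. A second table deposited by the authors holds log2(TPM + 1) of the MITO groups with both replicates added, as its column sums show; the linear values, halved, are quoted as the authors' means. CPM are counts scaled to a library's total. The authors' 2 tables of fold changes were not used. Symbols were matched to current names and RefSeq GRCh38.p14 coordinates, and promoters came from RefSeq.

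Libraries were grouped by title. edgeR 4.0.16 in R 4.3.3 fitted group means by robust quasi-likelihood with TMM scaling and its default filter, in 4 fits (16 MITO, 12 LMNB1, 12 ERM and NES, and all 20 s6G libraries), and p-values were adjusted over all genes by Benjamini-Hochberg, with calls at an adjusted p of 0.05. SE is the log2 fold change over the root of F. The test was run on simulated counts first. The design text calls the replicates biological and says no more, and p-values measure the spread between these libraries. The series design describes enriched and input libraries of a number as the same replicate before and after enrichment, so the number pairs them. Deviations of paired libraries correlated with r of 0.473 to 0.607 in labelled MITO arms, 0.105 in the unlabelled one, 0.153 to 0.211 in ERM, 0.198 in NES, and 0.501, 0.344 and 0.0433 in LMNB1 (s6G, APEX only, unlabelled). The chi-square per gene between replicates was at least 2.98, so no pair differed by as little as sampling noise. The ERM libraries fell into pairs. Inputs 1 and 2 differed by 2.98 and inputs 3 and 4 by 4.82, against 11.9 to 20.1 between these pairs. Among the ERM enriched libraries the values were 5.73 and 5.43, against 11.6 to 23.7. What separates the pairs was not tested, and the main fit did not model it.

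Named members were the 10 with the highest input CPM, up to 5 called members at each end of a comparison whose groups did not overlap in CPM, every member in a list of renamed or small-protein genes, and 3 LINC genes on each side of the threshold. Other members named were picked after their values were seen. Alternatives were RLE and total-count scaling, no filter beyond 1 count, DESeq2 1.42.0, a replicate block and leaving out each library. Where that left 1 library in a group, the lone library is assumed to vary like those of the other groups in the fit. A joint fit of inputs and shares without genes of mitochondrial DNA were added after seeing the data. Some members have near-identical copies in the genome (LINC01106 and LINC01123, LINC00869 and LINC01138, LINC00863, LINC00623, LINC00843), so their counts are uncertain. Intervals and floors cover counting error only.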

Additional observations from a re-analysis of the deposited data

Results flagged for a closer look

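In the difference between LMNB1 and NES enrichment with s6G, the direct test called 24 members, of which the 5 highest and 5 lowest with non-overlapping groups are given. The log2 difference was 4.55 for LINC01341 (-0.95 without the second NES input), 3.38 for LINC00926, 3.36 for LINC01424, 3.21 for LINC00894 and 3.18 for LINC00174. It was -1.44 for LINC00094, -1.51 for LINC00863, -1.55 for LINC00662, -1.66 for LINC01605 and -1.90 for LINC01003. LINC01341 passed the filter on low counts only through the LMNB1 enriched libraries, where it was high. Construct and preparation cannot be told apart here.

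In the groups of 4 ERM libraries, 1 library stood far from the other 3 for 4 members, judged by its gap to the nearest over the whole range. The ratio was 0.864 for LINC01535 in the enriched libraries (0.749, 0.316, 0.72 and 0.69 CPM). In the inputs it was 0.879 for LINC00116 (5.7, 2.62, 5.47 and 5.33 CPM), 0.861 for LINC00493 (9.6, 12.6, 12.5 and 12.9 CPM) and 0.89 for LINC00648 (3, 2.97, 2.86 and 1.7 CPM). These came from 40 sets examined, each the 4 values of 1 member in 1 ERM group, of which chance picks out about 1 in 20. The LINC01535 values rest on 4, 2, 10 and 10 counts, the last ones from the libraries with only even counts.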

How the results depend on the processing

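Counts of called members in ERM and NES kept within 1.5 times under every alternative run, with 32 to 38 and 25 to 33 when 1 library was left out. The LMNB1 against NES difference gave 16 to 24. With 1 library left out, the LMNB1 s6G count was 0 to 1, the unlabelled LMNB1 count 0 to 9, LMNB1 s6G minus unlabelled 0 to 10, unlabelled MITO 0 to 10, and the MITO s4U input count 0 to 0. DESeq2 called 6 members in LMNB1 s6G, 4 in LMNB1 APEX only, 4 in unlabelled LMNB1, 18 in unlabelled MITO, 2 and 3 in the MITO and LMNB1 s6G inputs and 3 in LMNB1 s6G minus unlabelled. Over all genes it called 3160, 1043 and 446 of 16525 in these LMNB1 arms and 1821 of 15151 in unlabelled MITO. Total-count scaling called 5 in LMNB1 s6G, 4 in MITO s6G, 3 in MITO APEX only and 1 in ERM minus NES. Without a filter there were 2 in the MITO and 4 in the LMNB1 s6G inputs, 1 in LMNB1 s6G minus unlabelled and 1 in ERM minus NES. In the joint input fit 17 were called. The paired fits with the replicate block called 6 in LMNB1 s6G, 1 in MITO s6G, 1 in MITO s4U, 4 in MITO APEX only, 20 in unlabelled MITO, 4 in the LMNB1 s6G inputs and 1 in ERM minus NES, and moved no other total by over 1.5 times, though in LMNB1 against NES they called 14 members lower in place of 8. Requiring 0.5 CPM in every input group left 89 members. LINC01341, LMNB1 against NES, ranged from -0.95, a reversal, to 5.55 when 1 library was left out. The causes were not tested. Depth was lowest in the unlabelled MITO enriched libraries, where 65 and 110 members had a count.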
